A study of Mus musculus with 15 samples.

Results

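The neuronal nicotinic acetylcholine receptor subunits measured here are Chrna2, Chrna3, Chrna4, Chrna5, Chrna6, Chrna7, Chrnb2, Chrnb3 and Chrnb4. They are 9 of the 22180 genes named in the array table, chosen by gene symbol, and each is represented by 1 transcript cluster. Total RNA came from sorted thalamic cells of mouse embryos on a C57BL/6 background. All 5 groups carried the same alleles, Gbx2CreER-IRES-EGFP/+ and R26lsl-tdTomato/+. E18.5 double-labelled, E18.5 red and E18.5 green cells came from litters whose mothers received 4 mg tamoxifen at E9, and E14.5 red and E14.5 green cells from litters treated with 4 mg at E9.5. Each group had 3 arrays from biological replicates. EGFP and the inducible Cre are both driven by Gbx2, a homeodomain factor of the developing thalamus, so the green sort itself favours cells with high Gbx2, and red (tdTomato) marks cells in which Cre had been active and their descendants. Neither sorting gates nor the number of embryos per sort are in the labels. E14.5 had no double-labelled group.

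Nicotinic receptors are pentameric cation channels opened by acetylcholine. The alpha4 and beta2 subunits form the main high-affinity receptor of the brain, which is abundant in thalamus. The alpha3 and beta4 subunits are best known from the medial habenula and autonomic ganglia, where alpha5 joins them as an accessory subunit. The alpha6 and beta3 subunits are best known from midbrain dopaminergic neurons and from retinal ganglion cells. The alpha7 subunit can form a channel without any other subunit, and alpha2 has a restricted distribution in rodent brain.

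Values are log2 signals as deposited, so a difference of 1 is a doubling of signal. Array signals have no zero and no detection call, and different probes are not comparable in level, so each subunit is set only against itself in other groups. Differences were tested with limma across 16635 genes with Benjamini-Hochberg adjustment, and "higher" or "lower" calls use a threshold of adjusted p 0.05. Of the 9 subunits, 8 passed the filter on low signals and Chrna5 did not. Chrnb3 passed only because of E18.5 red cells: its mean over all arrays was 5.22 against a cutoff of 5.07, but 4.83 over the other 12 arrays. Its E18.5 calls held when no filter was applied, with an adjusted p of 7.29e-05 for red against green and 0.000188 for double-labelled against red.

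Thalamic markers were looked at as a description of the labelled tissue, and they do not settle which tissue the red cells came from. The mean of 8 such markers per array was 9.09 to 9.48 in double-labelled, 8.75 to 8.99 in red and 9.51 to 9.66 in green cells at E18.5. Their median difference in red against green cells was -0.70. Tcf7l2, a thalamic transcription factor, averaged 11.92 in double-labelled, 11.55 in red and 12.00 in green cells at E18.5. Gbx2 averaged 8.33 in double-labelled and 6.35 in red cells, against 8.43 in green cells at E18.5, where red was lower than green (adjusted p = 0.00517). The sort on EGFP, driven by Gbx2, itself favours this difference, so it is no independent check of the tissue. The first replicates of E18.5 double-labelled and of E18.5 red cells had a narrower spread of all values (SD 1.31 and 1.34) than the other 7 E18.5 arrays (1.44 to 1.51), and are called the narrow-range arrays. Both lay outside the range of the other 7 E18.5 arrays for 5 of the 9 subunits, below it for Chrna3 and Chrnb2 and above it for Chrna5, Chrna7 and Chrnb4. For Chrna2 and Chrna4 only the red one was outside, at 5.92 against a highest value of 5.71 for Chrna2 and at 7.54 against a lowest value of 7.64 for Chrna4. Both were inside the range for Chrna6 and Chrnb3.

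Chrna3 and Chrnb4 are neighbours on chromosome 9 next to Chrna5, on the same strand as each other, and Chrna6 and Chrnb3 are neighbours on chromosome 8. The promoters of the habenular pair are shown because their levels are compared below. The sequences are from RefSeq on build GRCm38.p6, 250 bases before to 50 bases after the start site, on the minus strand, at chr9:55026513-55026812 for Chrna3 and chr9:55048495-55048794 for Chrnb4. Capitals mark matches, on either strand, to GGGCGG (a GC box), CCACCC (a CA box) or CAGCTG (an E-box).
Chrna3: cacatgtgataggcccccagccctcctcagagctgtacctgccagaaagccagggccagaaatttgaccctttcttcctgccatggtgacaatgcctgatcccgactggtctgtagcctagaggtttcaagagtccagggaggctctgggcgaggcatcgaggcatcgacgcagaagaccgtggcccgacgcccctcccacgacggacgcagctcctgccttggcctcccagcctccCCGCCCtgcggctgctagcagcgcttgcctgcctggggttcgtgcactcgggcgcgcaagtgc
Chrnb4: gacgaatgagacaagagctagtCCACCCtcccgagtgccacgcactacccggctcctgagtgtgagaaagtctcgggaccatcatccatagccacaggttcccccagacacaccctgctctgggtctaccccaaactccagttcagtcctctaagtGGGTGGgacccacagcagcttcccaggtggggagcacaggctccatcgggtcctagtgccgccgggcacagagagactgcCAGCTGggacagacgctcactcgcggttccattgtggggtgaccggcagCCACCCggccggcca

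Both windows are GC-rich, with 64.3% GC for Chrna3 and 63.0% for Chrnb4. The Chrna3 window held 1 GC box and no match to the other motifs. The Chrnb4 window held 3 CA boxes and 1 E-box and no GC box. None of the motifs overlap each other here, and the pair shared none of the 3. Among 32851 RefSeq promoter windows of this length, 35.7% held the GC box, 31.5% the CA box and 16.3% the E-box. Of the 9 subunits, 6 had a promoter entry, and Chrna2, Chrna6 and Chrnb3 had none.

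The dopaminergic-type subunits Chrna6 and Chrnb3 were the members that separated the sorted populations at E18.5, and both were highest in red cells. Chrnb3, an accessory subunit, had signals of 5.29, 5.29 and 4.81 in double-labelled cells, 6.84, 6.96 and 6.52 in red cells and 5.07, 5.23 and 5.05 in green cells at E18.5. Every red array was more than 1 log2 unit above every other E18.5 array, whereas double-labelled and green arrays overlapped. Red exceeded green by 1.65 (SE 0.14, 95% interval 1.35 to 1.95, adjusted p = 3.85e-05). Double-labelled cells were lower than red cells by 1.64 on the log2 scale (adjusted p = 6.98e-05), a call that was lost with only the double-labelled and red arrays in the fit (adjusted p = 0.227). Outside E18.5 red cells Chrnb3 lay in the lowest 25% of all genes of its stage, so these are differences of signal and are not given as folds. Double-labelled minus green was 0.01, with an interval of -0.29 to 0.31 (adjusted p = 0.988). In bulk samples such as these, more cells of a type and more RNA per cell cannot be told apart.

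Chrna6, a subunit that takes part in the acetylcholine binding site, followed a graded order at E18.5. Its signals were 5.93, 5.70 and 5.65 in double-labelled cells, 6.06, 6.11 and 6.23 in red cells and 5.20, 5.39 and 5.37 in green cells. No array of one population overlapped another, with red highest, double-labelled between and green lowest. Red exceeded green by 0.81 (SE 0.10, interval 0.59 to 1.03, 1.76-fold, adjusted p = 0.00259). The neighbouring steps did not pass the test over all genes. Double-labelled minus green was 0.44 (interval 0.22 to 0.66, unadjusted p = 0.00072, adjusted p = 0.261), and double-labelled minus red was -0.37 (interval -0.59 to -0.15, unadjusted p = 0.0029, adjusted p = 0.46). Groups that do not overlap were found for 15.3% of all genes tested in red against green cells, for 8.15% in double-labelled against green cells and for 4.18% in double-labelled against red cells. The Chrna6 call in red against green depended on which arrays entered the fit: its adjusted p was 0.11 with only the red and green E18.5 arrays and 0.0759 with only the E18.5 arrays.

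At E14.5 neither gene separated the colours. Chrnb3 had signals of 4.54, 4.51 and 4.51 in red cells, against 4.53, 4.57 and 4.60 in green cells. Chrna6 had signals of 5.06, 4.94 and 4.98 in red cells, against 4.98, 4.91 and 4.93 in green cells. The groups overlapped for both genes. Red minus green was -0.04 for Chrnb3 (interval -0.34 to 0.26, adjusted p = 0.988) and 0.05 for Chrna6 (interval -0.17 to 0.27, adjusted p = 0.964).

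The red-green difference itself differed between stages for this pair. It was larger at E18.5 than at E14.5 by 1.70 for Chrnb3 (SE 0.20, interval 1.27 to 2.12, adjusted p = 0.000596) and by 0.76 for Chrna6 (SE 0.15, interval 0.45 to 1.07, adjusted p = 0.0205). These 2 were the members that passed this test out of 8, where 1.05% of all genes tested passed and 0.547% did so in this direction. The Chrna6 result lost its call when any 1 of 6 arrays was left out (E18.5 red 3, E18.5 green 1, and replicates 2 and 3 of E14.5 red and of E14.5 green), with adjusted p between 0.0523 and 0.0684. The tamoxifen day differed with the stage, and their parts cannot be told apart.

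**Figure D1:**
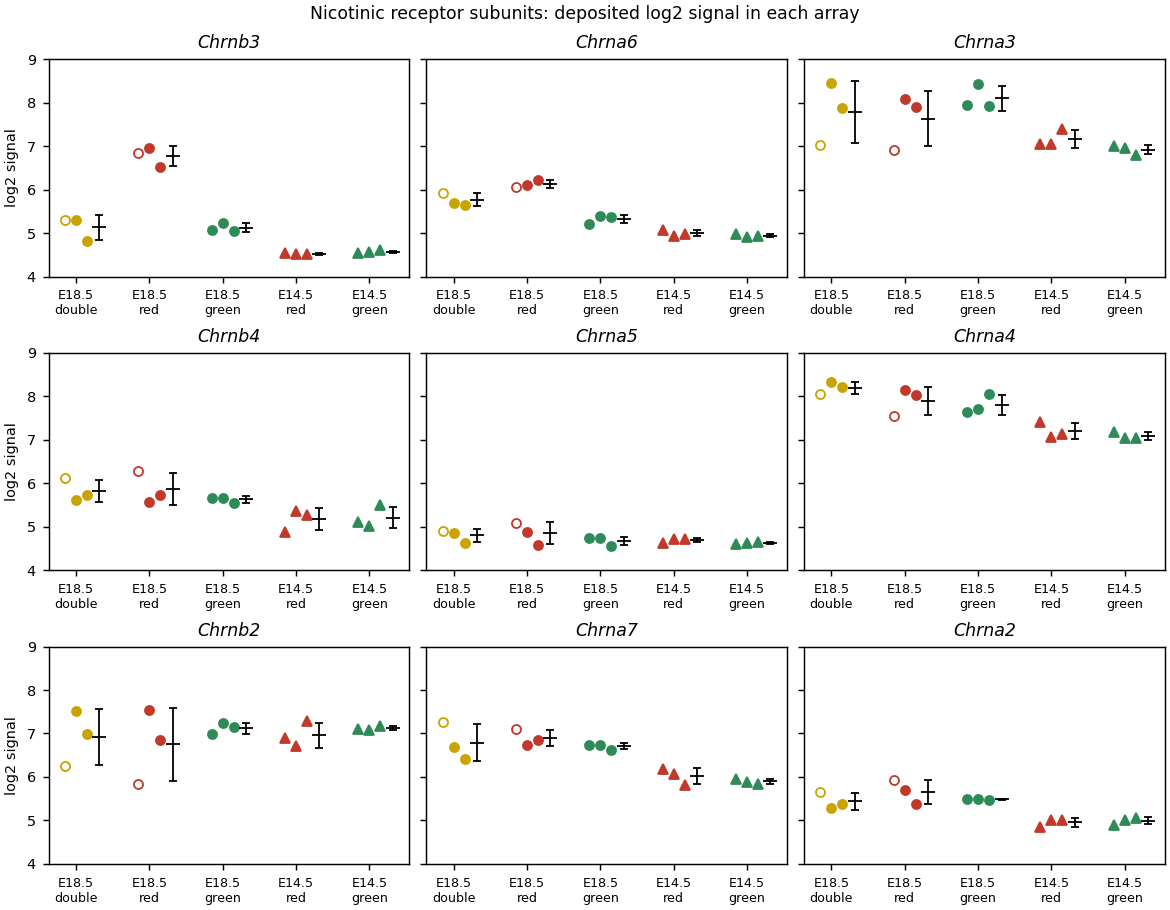
Deposited log2 signal of the 9 subunits in each array, by group; circles are E18.5, triangles E14.5, open circles the narrow-range arrays, and bars mean ± SD of 3 arrays. Chrnb3 and Chrna6 are highest in E18.5 red cells, and open circles stand apart for Chrna3, Chrnb2, Chrna7 and Chrnb4.

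The habenular pair, Chrna3 and Chrnb4, did not separate the populations. Chrna3, the ligand-binding alpha subunit of the ganglionic-type receptor, had signals of 7.02, 8.45 and 7.88 in double-labelled cells, 6.90, 8.09 and 7.90 in red cells and 7.94, 8.43 and 7.93 in green cells at E18.5. The lowest value of the double-labelled and of the red group was its narrow-range array, and the 3 groups overlapped. Red minus green was -0.47 (interval -1.18 to 0.23, adjusted p = 0.586), and -0.11 without the narrow-range arrays (adjusted p = 0.902). Chrnb4, its usual beta partner, had signals of 6.11, 5.62 and 5.74 in double-labelled cells, 6.28, 5.57 and 5.72 in red cells and 5.67, 5.67 and 5.54 in green cells. Here the narrow-range arrays were the highest ones, and the groups again overlapped. Red minus green was 0.23 (interval -0.19 to 0.65, adjusted p = 0.637), and 0.02 without those arrays (adjusted p = 0.986). Double-labelled cells differed from green by -0.32 for Chrna3 (interval -1.03 to 0.38) and by 0.19 for Chrnb4 (interval -0.23 to 0.61), with adjusted p = 0.843 for both. The order of the 3 populations at E18.5 (green, double-labelled, red from high to low for Chrna3, and red, double-labelled, green for Chrnb4) had no step beyond the spread between arrays.

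At E14.5 Chrna3 had signals of 7.05, 7.04 and 7.40 in red cells, against 7.01, 6.96 and 6.80 in green cells. These groups did not overlap, as for 27.9% of all genes tested, but the difference of 0.24 did not pass the test (interval -0.46 to 0.95, adjusted p = 0.931). Chrnb4 had signals of 4.89, 5.37 and 5.27 in red cells, against 5.11, 5.02 and 5.49 in green cells, which overlapped. Its red-green difference was -0.03 (interval -0.45 to 0.39, adjusted p = 0.992).

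Chrna5, the accessory subunit that neighbours this pair on the chromosome, lay in the lowest 25% of all genes in every group. Its signals were 4.91, 4.86 and 4.63 in double-labelled cells, 5.09, 4.87 and 4.59 in red cells and 4.73, 4.73 and 4.56 in green cells at E18.5. At E14.5 they were 4.63, 4.72 and 4.72 in red cells, against 4.60, 4.63 and 4.65 in green cells. The groups overlapped at both stages, and tested without the filter red minus green was 0.18 at E18.5 (interval -0.06 to 0.43, adjusted p = 0.588) and 0.07 at E14.5 (interval -0.18 to 0.31, adjusted p = 1.0).

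Among the alpha4beta2 subunits, Chrna4 had signals of 8.05, 8.32 and 8.21 in double-labelled cells, 7.54, 8.14 and 8.02 in red cells and 7.64, 7.70 and 8.05 in green cells at E18.5. Double-labelled cells had the highest mean, though the groups touched or overlapped. Double-labelled minus green was 0.40 (interval 0.05 to 0.75, unadjusted p = 0.028, adjusted p = 0.84), double-labelled minus red 0.30 (interval -0.05 to 0.64, adjusted p = 1.0) and red minus green 0.10 (interval -0.25 to 0.45, adjusted p = 0.796). Chrnb2, which pairs with Chrna4 in most brain receptors, had signals of 6.25, 7.52 and 6.98 in double-labelled cells, 5.85, 7.53 and 6.86 in red cells and 6.98, 7.24 and 7.14 in green cells. The green arrays lay inside the range of both other groups, whose lowest values were the narrow-range arrays. Red minus green was -0.37 (interval -1.13 to 0.38, adjusted p = 0.662), and 0.08 without those arrays. At E14.5 Chrna4 had 7.41, 7.07 and 7.13 in red cells, against 7.18, 7.03 and 7.03 in green cells, and Chrnb2 had 6.89, 6.71 and 7.29 in red cells, against 7.10, 7.08 and 7.18 in green cells. Both overlapped between colours, with adjusted p of 0.927 for Chrna4 and 0.975 for Chrnb2.

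Chrna7, the subunit of the homomeric receptor, had signals of 7.26, 6.68 and 6.42 in double-labelled cells, 7.11, 6.73 and 6.86 in red cells and 6.74, 6.74 and 6.63 in green cells at E18.5. The 2 highest values were those of the narrow-range arrays, and red minus green was 0.19 (interval -0.18 to 0.57, adjusted p = 0.656). At E14.5 its signals were 6.18, 6.06 and 5.81 in red cells, against 5.95, 5.89 and 5.85 in green cells, with a difference of 0.12 (adjusted p = 0.941). Chrna2 had signals of 5.65, 5.29 and 5.39 in double-labelled cells, 5.92, 5.71 and 5.37 in red cells and 5.49, 5.49 and 5.47 in green cells at E18.5. The groups of both genes overlapped. Red minus green for Chrna2 was 0.18 (interval -0.11 to 0.47, adjusted p = 0.607). At E14.5 Chrna2 had 4.84, 5.02 and 5.02 in red cells, against 4.90, 5.01 and 5.06 in green cells, with a difference of -0.03 (adjusted p = 0.989).

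Counted together, 2 of the 8 tested subunits (Chrna6 and Chrnb3) had higher signals in E18.5 red cells than in E18.5 green cells and 0 had lower ones, where 0.613% of all genes tested passed in either direction and 0.265% were higher. In double-labelled against red cells 1 of 8 (Chrnb3) was lower, where 0.0902% of genes passed and 0.0661% were lower. The test of any difference among the 3 populations called the same 2 subunits, Chrna6 (adjusted p = 0.00814) and Chrnb3 (adjusted p = 3.63e-05), where 0.427% of genes passed. In double-labelled against green cells limma called 0 of 8, with 2 (Chrna4 and Chrna6) at an unadjusted p under 0.05, where 0.0361% of genes passed. In red against green cells at E14.5 it called 0 of 8, with 0 at an unadjusted p under 0.05, where 3.52% of genes passed. The median difference of the 8 subunits was 0.19 in E18.5 red against green cells, beside -0.01 for all genes tested, and 0.08 without E18.5 red replicate 1. It was -0.08 for double-labelled against red (all genes 0.02, and -0.25 to 0.04 with 1 array left out), with the lowest value without double-labelled replicate 1 and the highest without double-labelled replicate 3. It was 0.05 for double-labelled against green (all genes 0.00, and 0.01 without green replicate 3 to 0.20 without double-labelled replicate 3) and 0.01 for E14.5 red against green (all genes 0.00, and up to 0.07 with 1 array left out, without green replicate 3). Because Chrnb3 passed the filter only through red cells, these counts describe the tested members and not all 9.

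**Figure D2:**
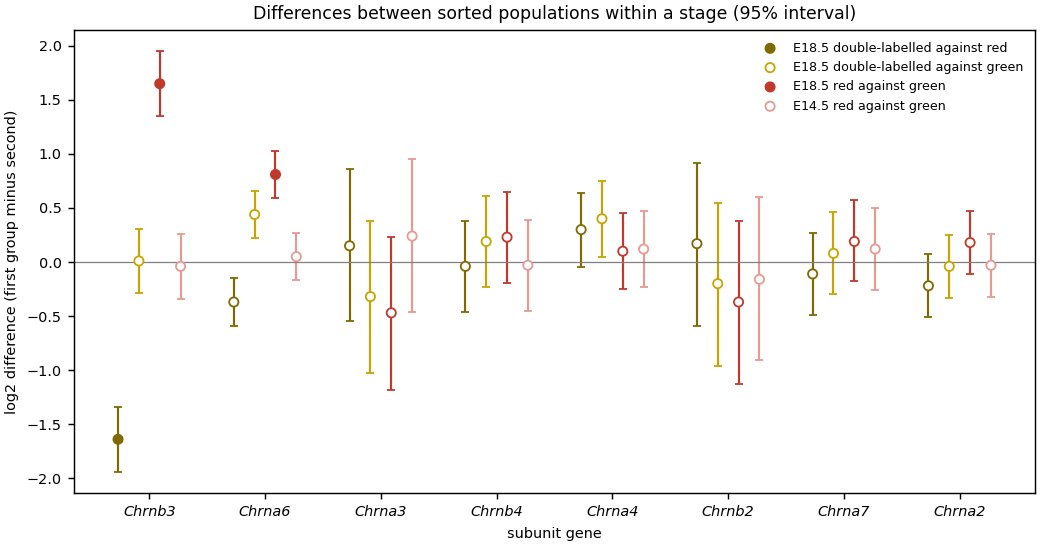
Log2 difference of each tested subunit between sorted populations, with its 95% interval, for 4 comparisons; the first-named group is the minuend, and filled points passed the threshold. Filled points are Chrnb3 in double-labelled against red (-1.64) and in red against green (1.65) and Chrna6 in red against green (0.81).

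Whether the subunits of a pair moved together was examined across arrays, with exact permutation tests over 36 pairs of subunits. Chrna6 and Chrnb3 were both highest in the 3 E18.5 red arrays, which formed a cluster of their own, so no pooled correlation is given. Among the 6 double-labelled and green arrays, which share the 2 group means, Pearson's r was 0.29 (exact permutation p = 0.581, adjusted 0.90) and Spearman's rho was 0.58 (exact permutation p = 0.244, adjusted 0.764). Without the 2 arrays farthest from the median of Chrna6 r was -0.12. Among the 6 E14.5 arrays r was -0.32 (exact permutation p = 0.531) and rho -0.37 (exact permutation p = 0.497). The pair thus shared the high red group, and no correlation beyond it was detected.

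For the habenular pair the correlation at E18.5 was negative, but it did not pass the adjustment over the 36 pairs. Over the 9 E18.5 arrays Chrna3 and Chrnb4 had an r of -0.90 (exact permutation p = 0.0071, adjusted 0.0852) and a rho of -0.77 (exact permutation p = 0.019, adjusted 0.171). The 2 arrays farthest from the median of Chrna3 were the narrow-range arrays, and without them r was -0.20 (exact permutation p = 0.639) and rho -0.50 (exact permutation p = 0.258) over 7 arrays. The value of r therefore rested on those arrays, while rho kept its sign and did not pass. At E14.5 r was -0.13 (exact permutation p = 0.812) and rho -0.31. Of the 36 pairs at E18.5, Chrna3 with Chrnb2 and Chrnb2 with Chrnb4 passed the adjustment by r, and the first of them also by rho. Chrna3 and Chrnb2 had an r of 0.94 (exact permutation p = 0.00119, adjusted 0.0214) and a rho of 0.92 (adjusted 0.0472), and r was 0.70 over the 7 arrays without the narrow-range arrays (exact permutation p = 0.0857). Chrnb2 and Chrnb4 ran in opposite directions, with r of -0.95 (exact permutation p = 0.000843, adjusted 0.0214) and rho of -0.87 (adjusted 0.0662), and r was -0.66 without the narrow-range arrays (exact permutation p = 0.115). The narrow range of those 2 arrays moved with these correlations, and its part in them beyond the values given was not tested.

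**Figure D3:**
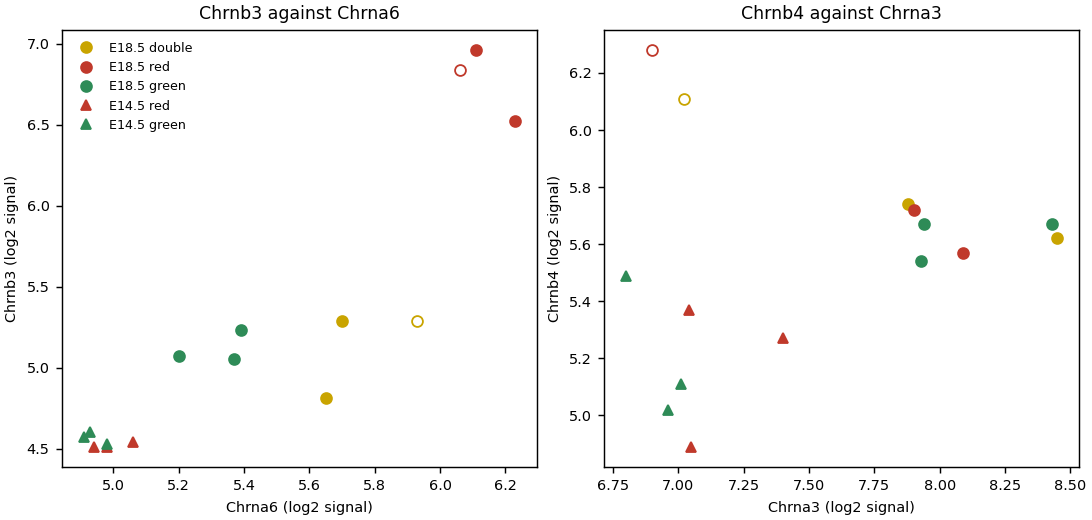
Log2 signal of Chrnb3 against Chrna6 and of Chrnb4 against Chrna3 in each of the 15 arrays, by group, with open circles for the narrow-range arrays. The E18.5 red arrays stand at the top right for Chrna6 and Chrnb3, and the 2 open circles stand at the top left for Chrna3 and Chrnb4, away from the other E18.5 arrays.

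The genes most like these subunits over the 9 E18.5 arrays were found by Pearson's r over all genes tested, as a description without a test. For Chrnb3 they were Gsg1l (r = 0.978), Th (0.970), which encodes the rate-limiting enzyme of dopamine synthesis, Foxa1 (0.954), Ucn2 (0.952) and Pde2a (0.950). For Chrna6 they were Flvcr2 (0.940), Zdhhc22 (0.940), a palmitoyltransferase, Igsf9b (0.912), Aldh1b1 (0.912) and Fzd5 (0.906), a Wnt receptor. The lists of the pair shared no gene, and without the narrow-range arrays each of these 10 genes kept an r of at least 0.922. The 7 arrays left still hold red arrays, which stand apart for both subunits, and the genes were picked on the same arrays. Such r can follow from the red group alone and shows no link within a population. For Chrna3 they were Cct5 (0.993), a chaperonin subunit, Heatr5b (0.992), Brox (0.992), Grb2 (0.991) and Atp5b (0.991), with r of 0.946 to 0.964 over the other 7 arrays. For Chrnb4 they were Zfp316 (0.981), Ltbp3 (0.977), Ch25h (0.971), Sec14l3 (0.970) and Kif7 (0.967), and over the other 7 arrays their r ran from 0.421 for Kif7 to 0.863 for Sec14l3. Over the 6 E14.5 arrays the r of the genes named for Chrnb3 and Chrna6 ran from -0.905 for Aldh1b1 with Chrna6 to 0.888 for Foxa1 with Chrnb3, and that of Th with Chrnb3 was -0.006. The arrays of a group share their sorted population, so these values follow group means as well as single arrays.

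Part of the markers of midbrain-type dopaminergic neurons were, like Chrnb3 and Chrna6, higher in E18.5 red than in E18.5 green cells. With the subunits left out, 7 of 15 such markers were higher and 0 were lower, where 0.265% of all genes tested were higher. The other 8 did not pass, and the median difference of the list was 0.87. The 7 were Aldh1a1 (2.51), Slc6a3 (2.03), the dopamine transporter, Th (2.01), Slc18a2 (1.68), the vesicular monoamine transporter, Nr4a2 (1.26), Foxa1 (1.18) and Ddc (0.88). Unlike the pair, Slc18a2 was also higher in red cells at E14.5 (9.97 against 8.06 in green cells). Without the narrow-range arrays these 7 remained and Drd2 was lower (-0.97, adjusted p = 0.011). The list mean per array was 6.38 to 6.49 in double-labelled, 6.95 to 7.35 in red and 6.18 to 6.30 in green cells. Double-labelled cells had 5 of the 15 lower than red cells (Aldh1a1, Ddc, Nr4a2, Slc6a3 and Th), where 0.0661% of all genes tested were lower. Against green cells 0 of the 15 passed, where 0.0361% of all genes tested did. Of the defining markers, Th averaged 6.33 in double-labelled, 8.05 in red and 6.04 in green cells and Slc6a3 averaged 6.37, 7.90 and 5.87 in the same order. Pitx3, a factor of midbrain dopaminergic neurons, averaged 6.16 in double-labelled, 6.14 in red and 6.01 in green cells (red against green, adjusted p = 0.768), and Lmx1b averaged 6.69, 6.85 and 6.51 (adjusted p = 0.58). The list had been drawn up with earlier results of these arrays known, and the part of such cells in the Chrnb3 and Chrna6 differences was not tested.

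No habenular marker passed among the E18.5 populations. Of 11 tested, limma called 0 in each comparison. Of all genes tested, 0.613% passed in red against green, 0.0361% in double-labelled against green and 0.0902% in double-labelled against red cells. With shares this low, 0 of 11 is not read as a result about habenular neurons. The list had a median of -0.02 in red against green cells. Its mean per array was 6.34 to 6.40 in double-labelled, 6.23 to 6.38 in red and 6.32 to 6.43 in green cells. Of its defining markers, Pou4f1 averaged 5.90 in double-labelled, 5.91 in red and 5.86 in green cells, Nhlh2 7.84, 8.07 and 7.84, Gpr151 5.20, 5.43 and 5.29, and Chat, the enzyme that makes acetylcholine, 5.77, 5.70 and 5.65 in the same order. Without the narrow-range arrays Slc5a7, the high-affinity choline transporter of cholinergic neurons, was the 1 of 11 to pass, with double-labelled minus green at -0.73 (adjusted p = 0.0417). Of the other markers, 2 of 8 thalamic genes (Gbx2 and Lhx9) were lower in E18.5 red against green cells, where 0.613% of all genes tested passed in either direction. Of these 2, Gbx2 follows the sort itself. Without the narrow-range arrays Lhx2, also of the thalamic list, was lower too (-1.26, adjusted p = 0.000305). In red against green cells 1 of 6 GABAergic and prethalamic genes (Sp9) was higher, where 0.265% of all genes tested were higher. In the lists for cortical neurons, glia, oligodendrocyte lineage, microglia, endothelial cells and erythroid cells 0 passed, which at these shares is not read as a result.

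No other gene of the cholinergic lists passed among the E18.5 populations. In red against green cells limma called 0 of 5 genes of acetylcholine synthesis, transport and breakdown (median 0.05), 0 of 8 receptor chaperones and Ly6-type modulators (median -0.08), 0 of 5 muscarinic receptors (median 0.25) and 0 of 5 tested subunits of muscle and cochlear receptors (median 0.05). Double-labelled cells had 0 of the same genes called against either other population. Of all genes tested, 0.613% passed in red against green, 0.0361% in double-labelled against green and 0.0902% in double-labelled against red cells. With shares this low, nothing particular to these lists is read from their counts. Slc5a7, which is on the acetylcholine list too, averaged 5.62 in double-labelled, 5.75 in red and 6.23 in green cells, and its double-labelled minus green difference with all arrays was -0.61 (unadjusted p = 0.00042, adjusted p = 0.219).

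**Figure D4:**
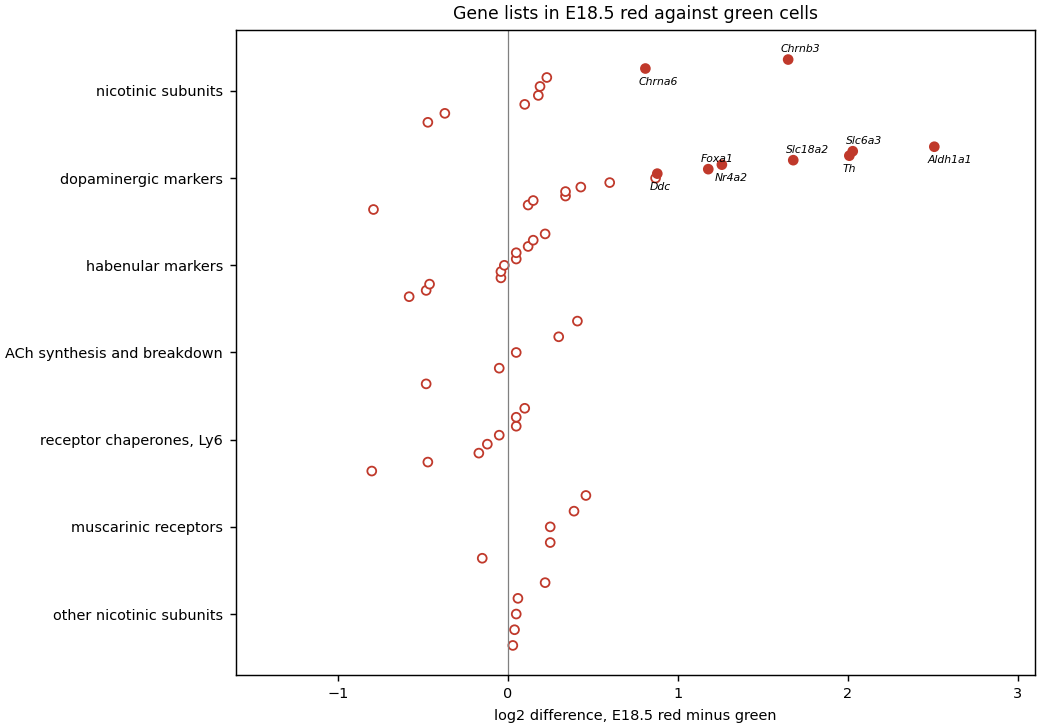
Log2 difference of E18.5 red minus green for the tested nicotinic subunits and for the genes of 6 lists; filled points passed the threshold and carry names, and vertical offsets only separate the points. Filled points are Chrnb3 and Chrna6 among the subunits and 7 of the 15 dopaminergic markers, and no point of the other 5 lists is filled.

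Between stages the deposited values carry a shift of the whole array: all genes tested had a median difference of 0.60 in red and 0.61 in green cells for E18.5 minus E14.5, which quantile normalization of the 15 arrays brought to -0.02 and -0.03. Against that shift, 6 of the 8 tested subunits were higher at E18.5 in red cells as deposited, where 72.4% of all genes passed and 71.3% were higher, and 6 of 8 in green cells, where 73.5% passed and 71.0% were higher. The median of the subunits was 0.70 in red and 0.52 in green cells. After quantile normalization 2 (Chrna6 and Chrnb3) passed in red cells, where 27.6% of genes passed, and 0 in green cells, where 33.8% did.

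In red cells Chrnb3 averaged 6.77 at E18.5 and 4.52 at E14.5, a difference of 2.25 as deposited (adjusted p = 8.84e-08), and 1.78 after quantile normalization (adjusted p = 6.51e-07). Chrna6 averaged 6.13 at E18.5 and 5.0 at E14.5, a difference of 1.14 (2.20-fold, adjusted p = 1.42e-06) and 0.48 after quantile normalization (adjusted p = 0.00221). These were the members whose rise in red cells passed under both scalings. In green cells the difference was 0.55 for Chrnb3 (adjusted p = 0.00291) and 0.38 for Chrna6 (adjusted p = 0.00472) as deposited, both under the shift of all genes, and 0.10 and -0.20 after quantile normalization (adjusted p = 0.574 and 0.132).

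For the other tested subunits no stage difference passed after quantile normalization. As deposited, Chrna7 was higher at E18.5 by 0.88 in red and 0.81 in green cells, Chrna4 by 0.70 and 0.72, and Chrna2 by 0.71 and 0.50 in the same order, of which Chrna2 in green cells turned to -0.10 after quantile normalization. Chrnb4 was higher by 0.68 in red cells (adjusted p = 0.00698), against 0.42 in green cells (adjusted p = 0.0665), and after quantile normalization the values were 0.05 and -0.20. The green difference passed in 5 alternatives, with adjusted p of 0.0127 with only the compared arrays, 0.0132 without the narrow-range arrays, 0.0313 without E18.5 red 1, 0.0497 without E18.5 double-labelled 1 and 0.0316 without E14.5 green 3. Chrna3 was higher by 1.18 in green cells (adjusted p = 0.00549) and differed by 0.47 in red cells (adjusted p = 0.21), with 0.50 in green and -0.16 in red cells after quantile normalization. In red cells that value turned on 1 narrow-range array: without it the difference was 0.83 (adjusted p = 0.0238). Chrna5, tested without the filter, differed by 0.16 in red (adjusted p = 0.216) and 0.04 in green cells (adjusted p = 0.729), both under the shift. After quantile normalization Chrna5 was not tested. It then averaged 4.68 at E18.5 and 5.0 at E14.5 in red cells, and 4.57 and 4.94 in green cells, so it was lower at E18.5. Chrnb2 did not rise with the shift, at -0.22 in red and 0.00 in green cells as deposited. After quantile normalization it was at -0.90 and -0.64 (adjusted p = 0.0714 and 0.177). The sign in red cells as deposited turned on the narrow-range arrays: without them the Chrnb2 difference was 0.23 (adjusted p = 0.303). For Chrna3, Chrna4, Chrna7, Chrna2, Chrnb4 and Chrnb2 the red-green difference did not pass the test of a difference between stages, with adjusted p between 0.804 and 0.998.

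**Figure D5:**
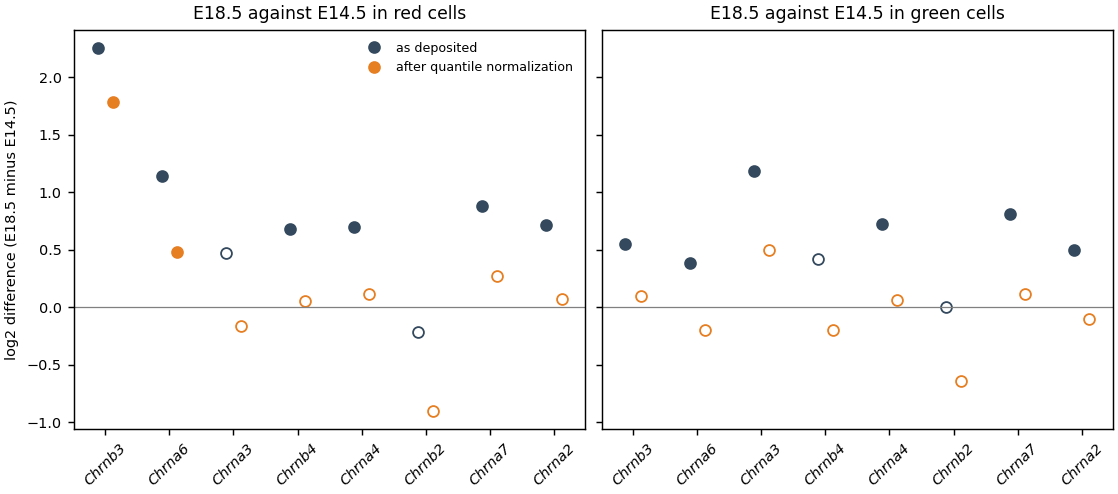
Log2 difference of E18.5 minus E14.5 for the 8 tested subunits in red and in green cells, as deposited and after quantile normalization of the 15 arrays; filled points passed the threshold. Chrnb3 and Chrna6 in red cells are the points that stay filled under both scalings.

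Genes that act on nicotinic receptors were counted between stages beside the shares of all genes given above, 71.3% and 71.0% higher as deposited and 27.6% and 33.8% past the threshold after quantile normalization in red and green cells. Nothing particular to the lists is read from their counts. All 8 receptor chaperones and Ly6-type modulators were higher at E18.5 than at E14.5 in both colours as deposited, and 3 of 8 in each colour after quantile normalization. Lypd6, a Ly6-type protein that modulates nicotinic receptors, averaged 7.98 at E18.5 and 5.18 at E14.5 in red cells, a difference of 2.80 (adjusted p = 4.74e-09). In green cells it averaged 8.16 at E18.5 and 5.13 at E14.5, a difference of 3.02 (adjusted p = 1.17e-09). Lynx1, another Ly6-type modulator, was higher by 1.85 in red and 1.79 in green cells, and Ric3, a chaperone known for alpha7 assembly, by 0.68 in red and 0.73 in green cells, close to the shift of all genes. All 5 tested genes of acetylcholine synthesis, transport and breakdown were higher at E18.5 in both colours as deposited and 2 of 5 in each after quantile normalization. Ache, which breaks acetylcholine down, was higher by 1.10 in red and 1.26 in green cells. Of the 5 muscarinic receptors 4 were higher in red and 5 in green cells as deposited, and 2 in each after quantile normalization. Of the 5 tested muscle and cochlear subunits 5 were higher in red and 4 in green cells as deposited, whereas after quantile normalization 1 was higher and 1 lower in red cells and 0 were higher and 1 lower in green cells.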

How the data were processed

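Sorted cells of 5 groups were measured on 15 Affymetrix arrays. Per the labels' protocols, RNA was isolated with a column kit and 10 ng was amplified with a Nugen whole-transcriptome kit. The authors deposited log2 signals made in Affymetrix Expression Console, per the submitters' processing notes. The version, the algorithm and whether stages were normalized together are not given in the sources used here, and array means of 6.17 to 6.19 at E18.5 and 5.63 to 5.65 at E14.5 differ by stage. No depth applies to arrays, and 3 arrays per group limit the precision.

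Of 33794 transcript clusters, 23521 named 1 gene by the platform annotation, 1814 several and 8459 none. By Entrez ID 23328 matched RefSeq of GRCm38.p6, which changed 0 symbols. Of 22180 genes, the 1082 with several clusters were represented by the one with the highest mean. The lowest 25% by mean (under 5.07) were left out.

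Group means were fitted with limma 3.58.1 in R 4.3.3 to all 15 arrays (10 residual degrees of freedom, 13.9 after moderation), two-sided, with p adjusted over 16635 genes. Correlations used exact permutation tests in Python 3.11.15. Fits were tested on simulated data. Same-numbered arrays of a stage deviated from their group means with a positive r in every pair of populations. For E18.5 red and double-labelled cells r was 0.487 to 0.669, against -0.61 to 0.43 for different numbers. For red and green at E18.5 it was 0.058 to 0.465, against -0.42 to 0.215. For double-labelled and green at E18.5 it was 0.047 to 0.414, against -0.394 to 0.137. For red and green at E14.5 it was 0.069 to 0.265, against -0.256 to 0.03. The main fit left this pairing out, and the replicate block was an alternative. Alternatives were no filter, quantile normalization, mean of clusters, a replicate block, fewer arrays in the fit, an intensity trend, and arrays left out, the narrow-range pair among them. All 9 subunits were named, and other genes were named by passing the test within a list, as defining markers, or as the 5 most alike, except that the stage paragraph on modulators and the sentence on Slc5a7 give examples chosen after values were seen. The members, lists and rules were chosen with earlier results of these data known, and those results already held the Chrnb3 differences at E18.5, so they are no independent support.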

Additional observations from a re-analysis of the deposited data

Results flagged for a closer look

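The red-green difference of 2 subunits differed between stages by the interaction test in limma. It was larger at E18.5 than at E14.5 by 1.70 (log2) for Chrnb3 and by 0.76 for Chrna6.

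Among the marker genes set beside the subunits, the same test passed in both directions. Values are the signed red minus green difference at E18.5 less that at E14.5. For the dopaminergic markers they were 2.45 for Aldh1a1, 2.14 for Slc6a3, 2.03 for Th, 1.91 for Foxa1 and -1.74 for Drd2. Foxa1 was higher in red cells at E18.5 (1.18) and lower in red cells at E14.5 (-0.73). For the habenular marker Nhlh1 the value was 2.49: red minus green was -0.04 at E18.5 and -2.53 at E14.5, so its difference lay at E14.5. For the thalamic marker Prox1 it was -1.88, with -1.02 at E18.5 and 0.86 at E14.5, neither of which passed. For the erythroid marker Hbb-y it was -1.36, with 0.10 at E18.5 and 1.46 at E14.5.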

How the results depend on the processing

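Of the comparisons of single subunits with their value under an alternative, 1222 kept their call or their lack of one, 17 lost the call, 7 gained it and 2 changed sign after a call. Of the 876 uncalled in both settings, which count among the 1222, 50 changed sign. The calls fell from 2 subunits to 1 in E18.5 red against green with only the compared or only the E18.5 arrays (Chrna6, adjusted p = 0.11 and 0.0759). With only the compared arrays the 1 call in double-labelled against red became 0 (Chrnb3, -1.64, adjusted p = 0.227). With only the E18.5 arrays the test of any difference among the 3 populations called 1 in place of 2. Those fits have fewer samples to estimate the spread, and they leave out the E14.5 arrays. For Chrnb3 the SD was 0.28 in double-labelled, 0.23 in red and 0.10 in green cells at E18.5, and 0.02 in red and 0.03 in green cells at E14.5. For Chrna6 it was 0.15, 0.09 and 0.10 at E18.5, and 0.06 and 0.04 at E14.5, in the same order. The SE and intervals of the main fit pool the spread of both stages. Why the calls were lost was not tested. Quantile normalization took the stage calls to 2 in red and 0 in green cells, and turned Chrna2 (-0.10, adjusted p = 0.52) and Chrna6 (-0.20, adjusted p = 0.132) in green cells. The cause was not tested.

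Leaving out 1 array at a time gave 1 to 2 calls for the stage difference of the red-green difference, where Chrna6 was lost, and 1 to 2 for any difference among the 3 populations, where Chrna6 was lost without E18.5 green 1. In red cells Chrna3 gained its stage call without E18.5 red 1. The correlation of Chrna3 and Chrnb4 at E18.5 was -0.20 without the narrow-range arrays (exact permutation p = 0.639). That of Chrna6 and Chrnb3 over the double-labelled and green arrays at E18.5 became -0.03 over the 5 left without double-labelled replicate 1 (exact permutation p = 0.95). It was 0.09 at E14.5 on deviations from group means (exact permutation p = 0.865).

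With the replicate block no subunit call within a stage or between the stages' red-green differences changed. Adjusted p was 4.23e-05 for Chrnb3 and 0.00524 for Chrna6 in E18.5 red against green, 6.68e-05 for Chrnb3 in double-labelled against red, and 0.000375 and 0.0373 for the stage difference of Chrnb3 and Chrna6. Signals near the array floor limit Chrna5 in all groups and Chrnb3 in all but E18.5 red.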

Other observations

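At E14.5, where no subunit separated the colours, some genes of the lists did, where 3.52% of all genes tested passed. Chrm2, a muscarinic receptor, was higher in red than in green cells by 0.88 (log2, adjusted p = 0.0412) and Ly6h, a Ly6-type protein, by 0.41 (adjusted p = 0.0462). Of the dopaminergic markers Slc18a2 (1.92) and Drd2 (0.95) were higher in red cells and Foxa1 (-0.73) was lower. Of the habenular markers Kctd12 was higher (1.53, adjusted p = 0.038) and Nhlh1 lower (-2.53, adjusted p = 1.13e-05) in red cells. Among markers of other cells, Rora (1.06) of the thalamic list was higher and Lhx2 (-1.03) and Lhx9 (-0.89) of the same list were lower in red cells. Gad2 (0.82), of GABAergic neurons, Slc1a3 (1.01), of radial glia and astrocytes, and Hbb-y (1.46), of erythroid cells, were higher in red cells.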
